A study of Homo sapiens with 16 samples.

Results

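Keratins, claudins and desmosomal cadherins are structural genes of epithelia, and melanocytes are neural crest derived cells that normally hold little of them. Keratins form the intermediate filaments of epithelial cells, in which a type I chain always pairs with a type II chain, and KRT8 with KRT18 is the pair of simple epithelia. Claudins form the sealing strands of tight junctions, and desmocollins and desmogleins are the cadherins that hold neighbouring cells together at desmosomes, where plaque proteins such as DSP and JUP tie them to keratin. EPCAM is a surface adhesion protein of epithelial cells. The genes were chosen by name from the count table of 2 BRAFi-R (BRAF inhibitor-resistant) melanoma cell lines: every protein-coding gene called KRT or CLDN followed by a digit, DSC1 to DSC3, DSG1 to DSG4 and EPCAM. The rule found 69 genes of the 34228 in the table, namely 43 keratins, 18 claudins, 3 desmocollins, 4 desmogleins and EPCAM. Another 18 genes of these names, KRT1 and CLDN5 among them, are not analysed here.

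The RNA-Seq data came from polyA RNA of 451Lu-R and 1205Lu-R cells treated for 24 h with DMSO, the control, or with corin at 2.5 μM. Corin is a bifunctional inhibitor of the CoREST repressor complex, which it hits at the histone deacetylases HDAC1 and HDAC2 and at the histone demethylase LSD1. The groups were 451Lu-R DMSO, 451Lu-R corin, 1205Lu-R DMSO and 1205Lu-R corin, with 2 libraries each. Both lines, controls included, had been made resistant by months of growth in rising PLX4032 (vemurafenib, the BRAF inhibitor) and were kept in it in routine culture. The 24 h DMSO and corin treatments list no PLX4032. The study also treated cells with PLX4032 alone and with corin. Per-library counts of those 8 libraries are not analysed here.

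The 8 libraries held between 9516687 and 11797788 estimated counts, and levels are given as CPM, counts scaled to a common library total. Melanocyte lineage markers summed to between 11700 and 13730 CPM in the 4 451Lu-R libraries and to between 8.29 and 26.6 CPM in the 4 1205Lu-R libraries, where the lineage factor SOX10 and the pigment enzyme TYR were at 0 throughout. In 451Lu-R, 7 of these 8 markers fell with corin and DCT rose. The lineage factor MITF went from 782 and 804 CPM to 287 and 286 CPM, and SOX10 from 773 and 743 CPM to 232 and 236 CPM. The 6 basal keratinocyte markers chosen for the check summed higher in corin, going from 2.20 and 2.48 CPM to 43.3 and 42.2 CPM in 451Lu-R and from 16.5 and 18.6 CPM to 35.5 and 38.2 CPM in 1205Lu-R. Of them KRT5, the partner of KRT14 in the basal layer, had 2 and 1 counts in 451Lu-R corin and none elsewhere. The 6 blood and endothelial markers in the table also summed higher in corin, going from 3.21 and 4.84 CPM to 13.6 and 12.8 CPM in 451Lu-R and from 11.5 and 11.4 CPM to 28.4 and 24.6 CPM in 1205Lu-R. Among them the endothelial gene VWF rose in both lines, from 16 and 12 to 96 and 85 counts and from 18 and 11 to 181 and 198 counts, and the leukocyte marker PTPRC had 3 counts or fewer. The part of these markers in the results was not tested, and in RNA from a whole culture, fewer cells of a type and less RNA per cell cannot be told apart.

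Most of the 69 genes were close to silent in DMSO, and a minority of them were at higher levels in corin. In 451Lu-R the summed level was 115 and 120 CPM in DMSO and 210 and 210 CPM in corin. In 1205Lu-R it was 337 and 333 CPM in DMSO and 516 and 500 CPM in corin. The abundant keratins set much of these sums, and without KRT8, KRT10 and KRT18 the other 40 keratins went from 2.01 and 2.24 CPM to 21.7 and 19.9 CPM in 451Lu-R and from 7.84 and 9.95 CPM to 49.0 and 46.4 CPM in 1205Lu-R. Without CLDN12, the other 17 claudins went from 3.21 and 3.37 CPM to 30.8 and 30.2 CPM and from 7.89 and 6.69 CPM to 34.8 and 30.1 CPM. Corin and DMSO libraries did not overlap in any of these sums.

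The number of these genes with at least 3 counts in both libraries of a group was 9 in 451Lu-R DMSO, 23 in 451Lu-R corin, 13 in 1205Lu-R DMSO and 21 in 1205Lu-R corin. Among the other 18090 protein-coding genes, the share detected in this way went from 68.9% to 76.7% in 451Lu-R and from 69.0% to 75.4% in 1205Lu-R. The share of silent members that became detectable was no higher than that of other silent genes. Of 45 members at 0 in both 451Lu-R DMSO libraries, 8 (17.8%) reached 3 counts in both corin libraries, against 20.6% of other protein-coding genes at 0. In 1205Lu-R it was 5 of 45 (11.1%), against 12.1%.

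Gene by gene, corin was compared with DMSO in each line by edgeR's quasi-likelihood test over all expressed genes, and "rose" and "fell" are used for genes at a Benjamini-Hochberg FDR under 0.05. In 451Lu-R, 17 of the 69 genes passed the filter on low counts: 14 rose, KRT10 fell and CLDN15 and DSC3 did not pass the test. Over the 14530 genes tested in that line, 41.3% rose and 38.6% fell (79.9% in either direction). In 1205Lu-R, 16 of the 69 passed the filter: 12 rose, none fell at this FDR, and CLDN15, DSG2, KRT7 and KRT10 did not pass the test. Over the 14563 genes tested there, 40.4% rose and 37.8% fell (78.3% in either direction).

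How a gene passed the filter bears on these counts. In 451Lu-R, 11 of the 17 passed only through the corin libraries and all 11 rose, as did 92.1% of the 1640 genes of the whole table that passed this way. Of the 6 members over the cutoff in DMSO, 3 rose (KRT8, KRT18 and CLDN12) and KRT10 fell, where 35.2% of all such genes rose and 43.9% fell, and their median log2 fold change was -0.10, against -0.105 over all such genes. In 1205Lu-R, the 6 that passed only through corin rose (87.4% of all such genes did). There 6 of the 10 over the cutoff in DMSO rose with none falling, where 34.4% of all such genes rose and 43.4% fell. The median log2 fold change of those 10 was 0.686, against -0.0959 over all such genes. At the study's thresholds of a 4-fold change and an FDR under 0.001, 10 members rose and 0 fell in 451Lu-R (12.4% and 2.72% of all tested genes, 15.1% together), and 6 rose and 0 fell in 1205Lu-R (11.3% and 1.43%, 12.8% together). All 10 in 451Lu-R and 5 of the 6 in 1205Lu-R had passed the filter only through corin, a route by which 77.1% and 64.5% of all genes were over these thresholds too, so these shares say little about the members. The plot of levels by library shows the 22 genes tested in either line beside the remaining desmosomal cadherins and EPCAM.

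**Figure D1:**
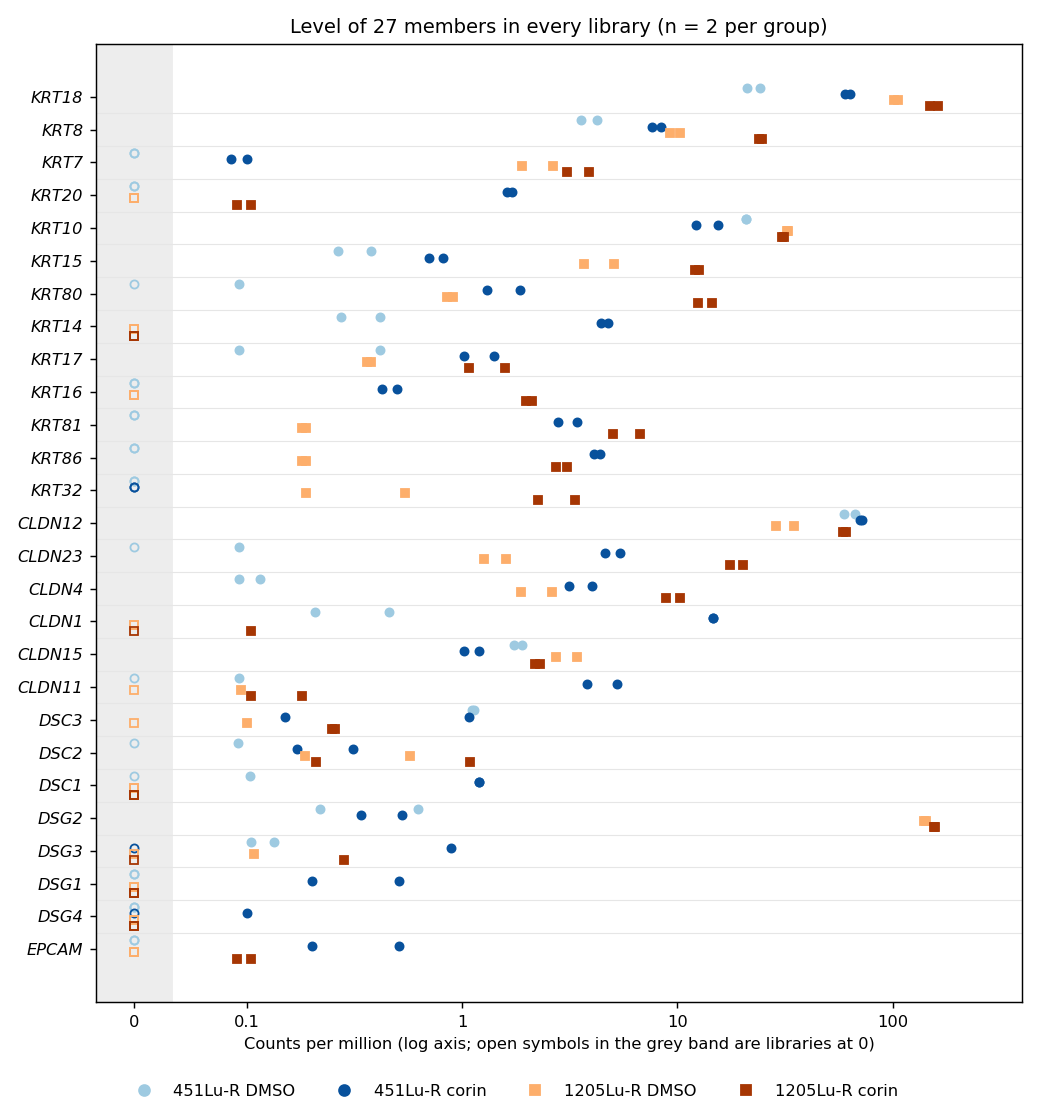
Level of 27 members in each library, in CPM on a log axis, with 451Lu-R as circles, 1205Lu-R as squares, DMSO in pale and corin in dark colour, and libraries at 0 as open symbols in the grey band. Every corin symbol of KRT8, KRT18, KRT80, KRT81, KRT86, CLDN4 and CLDN23 lies to the right of the DMSO symbols of the same line, and DSG2 lies near 139 to 157 CPM in 1205Lu-R and under 1 CPM in 451Lu-R.

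KRT18, the type I keratin of simple epithelia, was the member with most counts per length in 3 of the 4 groups. Its counts were 263 and 204 in 451Lu-R DMSO, 705 and 634 in 451Lu-R corin, 1170 and 1072 in 1205Lu-R DMSO, and 1539 and 1658 in 1205Lu-R corin. The groups did not overlap within a line. KRT18 rose in 451Lu-R by a log2 fold change of 1.54 ± 0.079 (SE, edgeR FDR 5.31e-13) and in 1205Lu-R by 0.51 ± 0.043 (SE, edgeR FDR 4.81e-10). The difference between the responses, 1205Lu-R minus 451Lu-R, was -1.06 ± 0.093 on the log2 scale (SE, edgeR interaction FDR 3.82e-09).

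KRT8, its type II partner, had 46.1 and 34.5 counts in 451Lu-R DMSO, 89.7 and 84.0 in 451Lu-R corin, 102 and 109 in 1205Lu-R DMSO, and 228 and 274 in 1205Lu-R corin. It rose by a log2 fold change of 1.14 ± 0.19 in 451Lu-R (SE, edgeR FDR 2.03e-05) and by 1.25 ± 0.11 in 1205Lu-R (SE, edgeR FDR 1.44e-09). The responses of the lines differed by 0.07 ± 0.22 (SE), which did not pass the test (edgeR interaction FDR 0.835). In GENCODE 44 the spans of KRT8 and KRT18 (chromosome 12, positions 52897187 to 52949954 and 52948871 to 52952906 of GRCh38) overlap at their ends on opposite strands.

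KRT8 has many processed pseudogenes, intronless copies whose reads are hard to tell from its own, and the table lists 15 of them. They took 54.8% and 51.1% of the counts of KRT8 and its pseudogenes together in 451Lu-R DMSO, 17.5% and 19.99% in 451Lu-R corin, 60.6% and 60.8% in 1205Lu-R DMSO, and 25.4% and 28.1% in 1205Lu-R corin. Most of these counts lay on KRT8P12, a transcribed pseudogene named here after its values were seen, inside the span of KPNA4 (chromosome 3, positions 160565447 to 160569248, plus strand). KRT8P12 had 49 and 31 counts in 451Lu-R DMSO, 14 and 14 in 451Lu-R corin, 139 and 143 in 1205Lu-R DMSO, and 63 and 88 in 1205Lu-R corin. It fell where KRT8 rose, with a log2 change of -1.49 in 451Lu-R (edgeR FDR 0.000286) and of -0.90 in 1205Lu-R (edgeR FDR 6.38e-06). The counts of KRT8P12 were whole numbers in all 8 libraries (within 0.01), while those of KRT8 were not. With all pseudogene counts added to KRT8, its log2 fold change was 0.33 in 451Lu-R, which no longer passed the test (edgeR FDR 0.0594), and 0.35 in 1205Lu-R (edgeR FDR 0.000737). The size of the KRT8 change thus depended on whether pseudogene counts were added to it. Whether the reads counted on KRT8P12 came from KRT8 was not tested. For KRT18, pseudogenes held between 0.464% and 2.59% of the counts.

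**Figure D2:**
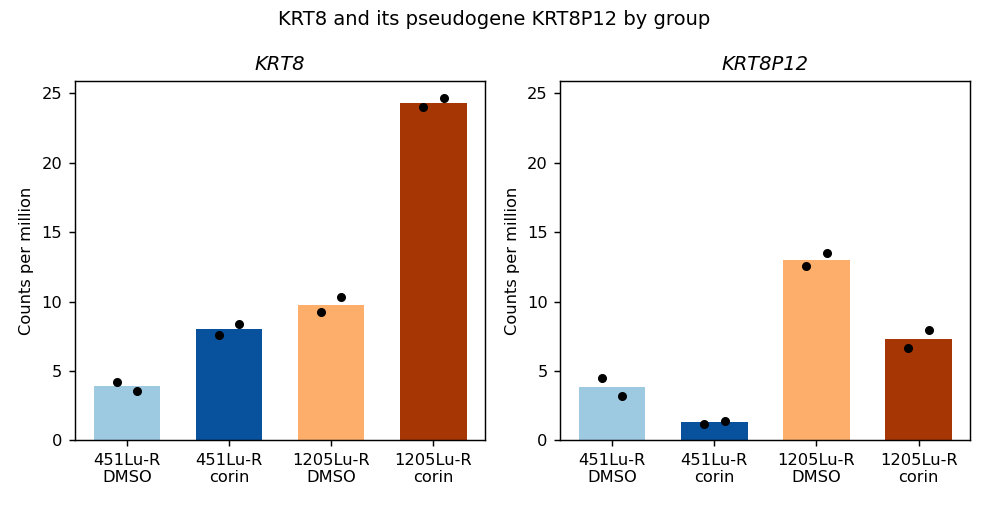
CPM of KRT8 (left) and of its pseudogene KRT8P12 (right), with a bar for the mean of 2 libraries and a point for each library. KRT8 is higher and KRT8P12 lower in corin than in DMSO in both lines.

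The other simple keratins were low in at least 1 line. KRT7, a type II keratin of glands and ducts, had 21 and 28 counts in 1205Lu-R DMSO, 37 and 34 in 1205Lu-R corin, and 0, 0, 1 and 1 counts in 451Lu-R DMSO and corin. Its log2 fold change in 1205Lu-R of 0.53 ± 0.29 (SE) did not pass the test (edgeR FDR 0.0948). KRT20, a type I keratin of gut epithelium and of Merkel cells in the skin, had 0 and 0 counts in 451Lu-R DMSO and 19 and 17 in 451Lu-R corin, and it rose (edgeR FDR 2.82e-06). Against 3 counts over the DMSO group, the limit taken for a count of 0, that is at least 11.3-fold higher. In 1205Lu-R, KRT20 went from 0 and 0 to 1 and 1 counts, too few for a fold. KRT23 and KRT19, which were too low to be tested, went from 0 in all DMSO libraries to 8 and 6 counts (KRT23) and 0 and 1 counts (KRT19) in 451Lu-R corin, and to 5 and 8 counts (KRT23) and 6 and 6 counts (KRT19) in 1205Lu-R corin.

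Among keratins of stratified epithelia and epidermis, KRT80 rose in both lines. KRT80 is a type II keratin found in many epithelia. It had 1 and 0 counts in 451Lu-R DMSO, 22 and 13 in 451Lu-R corin, 10 and 9 in 1205Lu-R DMSO, and 118 and 161 in 1205Lu-R corin. The ratio in 451Lu-R was 33.0 with a 95% counting interval from 5.55 to 1340 (edgeR FDR 1.23e-05), an interval that covers counting error only. In 1205Lu-R the log2 fold change was 3.86 ± 0.23 (SE, edgeR FDR 1.40e-12). The 2 responses did not differ past the test (edgeR interaction FDR 0.433).

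The basal and stress keratins KRT14, KRT15, KRT16 and KRT17 are type I genes of the same cluster on chromosome 17. None of their responses differed between the lines past the interaction test, which could not be estimated for KRT14 and KRT16. KRT14, the basal layer keratin, had 3 and 4 counts in 451Lu-R DMSO and 56 and 44 in 451Lu-R corin, and was at 0 in all 4 1205Lu-R libraries. It rose in 451Lu-R by a log2 fold change of 3.80 ± 0.39 (SE, edgeR FDR 2.96e-08). KRT15, a keratin of basal cells and hair follicle bulge, had 2.91 and 3.64 counts in 451Lu-R DMSO, 9.58 and 7.01 in 451Lu-R corin, 40.8 and 53.7 in 1205Lu-R DMSO, and 120 and 134 in 1205Lu-R corin. It was tested in 1205Lu-R alone, where it rose by 1.42 ± 0.17 (SE, edgeR FDR 1.07e-07). KRT16, induced in wounded skin, had 0 and 0 counts in both DMSO groups, 5 and 5 in 451Lu-R corin and 20 and 22 in 1205Lu-R corin, at least 14.7-fold higher in 1205Lu-R (edgeR FDR 6.89e-07) and at least 3.14-fold higher in 451Lu-R, where it was not tested.

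KRT17, a keratin of activated keratinocytes, had 1 and 4 counts in 451Lu-R DMSO, 12 and 14 in 451Lu-R corin, 4 and 4 in 1205Lu-R DMSO, and 15 and 12 in 1205Lu-R corin. The groups did not overlap, and KRT17 rose by a log2 fold change of 2.34 ± 0.62 in 451Lu-R (SE, edgeR FDR 0.00201) and 1.73 ± 0.53 in 1205Lu-R (SE, edgeR FDR 0.00527). The call rests on few counts and was lost with DESeq2 in both lines (adjusted p 0.0654 and 0.126). It was also lost without 451Lu-R DMSO replicate 1 (log2 fold change 1.59, edgeR FDR 0.0721) and without either 1205Lu-R DMSO library (edgeR FDR 0.0569 and 0.0510) or without 1205Lu-R corin replicate 1 (edgeR FDR 0.132).

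KRT10, the type I keratin of differentiating epidermis, did not follow the others. Its counts were 226 and 202 in 451Lu-R DMSO, 183 and 122 in 451Lu-R corin, 359 and 345 in 1205Lu-R DMSO, and 291 and 349 in 1205Lu-R corin. It fell in 451Lu-R by 0.48 on the log2 scale (SE 0.11, edgeR FDR 0.000877). In 1205Lu-R the log2 fold change was -0.14 ± 0.076 (SE, edgeR FDR 0.101). KRT10-AS1, an antisense gene that overlaps KRT10 on the other strand and is no member, fell in 451Lu-R as well, by 0.66 (edgeR FDR 0.00365), and the sources used here do not say whether the counting used strand.

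Of the hair keratins, KRT81 and KRT86, type II chains of the hair cortex, rose in both lines. KRT81 had 0 and 0 counts in 451Lu-R DMSO, 40.4 and 27.8 in 451Lu-R corin, 2 and 2 in 1205Lu-R DMSO, and 64.0 and 56.0 in 1205Lu-R corin. KRT86 had 0 and 0, then 51.6 and 41.2, in 451Lu-R, and 2 and 2, then 26 and 34, in 1205Lu-R. These are near-identical genes on opposite strands whose spans overlap, and their counts, split into fractions, summed to whole numbers in every library: 0 and 0, 92 and 69, 4 and 4, and 90 and 90. The share of each gene in that sum is therefore uncertain. Against 3 counts over 451Lu-R DMSO, KRT81 was at least 21.4-fold and KRT86 at least 29.2-fold higher in corin. Summed with KRT83, also a hair keratin, they rose in 1205Lu-R by a log2 fold change of 4.45 ± 0.32 (SE, edgeR FDR 3.18e-11), a sum chosen after the data were seen.

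KRT32, a type I hair keratin, had 6 and 2 counts in 1205Lu-R DMSO and 32 and 25 in 1205Lu-R corin, and was at 0 in all 4 451Lu-R libraries. It rose in 1205Lu-R by a log2 fold change of 2.80 ± 0.48 (SE, edgeR FDR 1.83e-05). The other 15 hair and inner root sheath keratins stayed at 13 counts or fewer in every library. KRT27, an inner root sheath keratin named after its values were seen, went the other way in 451Lu-R, with 13 and 8 counts in DMSO and 2 and 1 in corin. KRT75 went from 0 and 0 to 9 and 4 counts in the same line.

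The balance of the chains moved toward type II, a description with no test. Summed CPM per kb of exon over the 22 type I and 21 type II members gave a type I level 28.9 and 33.7 times the type II level in 451Lu-R DMSO, and 5.15 and 5.66 times in 451Lu-R corin. In 1205Lu-R the ratios were 22.7 and 18.1 in DMSO and 5.97 and 5.73 in corin. The corin and DMSO ratios did not overlap in either line. The ratio of KRT18 to KRT8 per kb moved up in 451Lu-R, from 12.8 and 13.3 to 17.6 and 16.9, and down in 1205Lu-R, from 25.7 and 22 to 15.1 and 13.6. All ratios with KRT8 carry the pseudogene limit given above.

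Position along the type II cluster (chromosome 12, 52168996 to 52952906) is given as a description, with no test of position. KRT80, KRT7, KRT86 and KRT81 are neighbours at the low-coordinate end, with gene starts within 117 kb, and 3 of them rose in both lines. KRT8 and KRT18 lie at the far end. The 16 members between KRT81 and KRT8 were tested in neither line, and the highest count any of them reached, summed over the 2 libraries of a group, was 13. Some of them were higher in corin than in DMSO, where they were at 0: KRT75 and KRT6B in 451Lu-R, each at least 4.09-fold, and KRT3 in 1205Lu-R, at least 2.8-fold. Of the 22 members of the cluster, 19 were at 0 in 451Lu-R DMSO and 5 in 451Lu-R corin, and 15 were at 0 in 1205Lu-R DMSO and 9 in 1205Lu-R corin. In the type I cluster (chromosome 17, 40748021 to 41624842, 21 members), the genes that rose were KRT20 near one end and KRT32, KRT15, KRT14, KRT16 and KRT17 at the other, and the hair keratins from KRT33A to KRT38, which lie between KRT20 and KRT32, had 2 summed counts or fewer in every group.

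**Figure D3:**
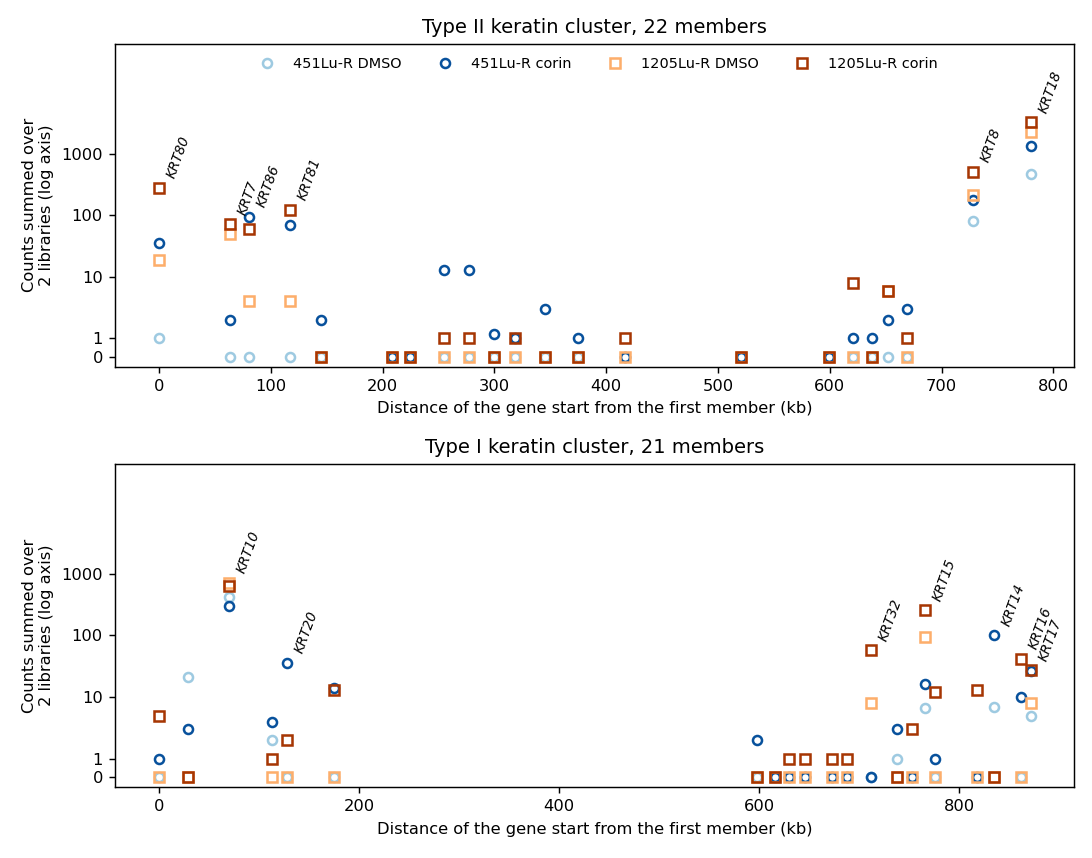
Counts summed over the 2 libraries of each group (log axis, 0 drawn at the foot) against the distance of each keratin gene from the first member of its cluster in kb, for the type II cluster (top, 22 members) and the type I cluster (bottom, 21 members). Genes over 25 summed counts in a group are named: they sit at the ends of the type II cluster, while the 16 members between KRT81 and KRT8 stay at 13 or below.

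Among the 18 claudins, 5 of the 6 tested in 451Lu-R rose and 3 of the 4 tested in 1205Lu-R rose, against 41.3% and 40.4% of all genes tested. In 451Lu-R, CLDN1, CLDN4, CLDN11 and CLDN23 had passed the filter only through corin. CLDN4, a claudin of simple and glandular epithelia, had 1 and 1.12 counts in 451Lu-R DMSO, 37 and 40 in 451Lu-R corin, 29 and 20 in 1205Lu-R DMSO, and 98.0 and 98.0 in 1205Lu-R corin. The ratio in 451Lu-R was 36.3 with a 95% counting interval from 9.72 to 305 (edgeR FDR 4.53e-08), and the log2 fold change in 1205Lu-R was 1.995 ± 0.21 (SE, edgeR FDR 2.03e-08). CLDN23 had 1 and 0 counts in 451Lu-R DMSO, 64 and 46 in 451Lu-R corin, 14 and 17 in 1205Lu-R DMSO, and 192 and 196 in 1205Lu-R corin. Its ratio in 451Lu-R was 104 with a 95% counting interval from 18.2 to 4140 (edgeR FDR 2.46e-09), and its log2 fold change in 1205Lu-R was 3.64 ± 0.19 (SE, edgeR FDR 1.22e-13). In corin both 1205Lu-R libraries held more counts of either claudin than both 451Lu-R libraries.

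CLDN1 and CLDN11 were raised in 451Lu-R and stayed near 0 in 1205Lu-R. CLDN1, a claudin of the epidermal barrier, had 5 and 2 counts in 451Lu-R DMSO and 173 and 147 in 451Lu-R corin, against 0, 0, 1 and 0 in the 1205Lu-R libraries. It rose in 451Lu-R by a log2 fold change of 5.48 ± 0.28 (SE, edgeR FDR 3.82e-13). CLDN11, the claudin of myelin and of Sertoli cells, had 1 and 0 counts in 451Lu-R DMSO and 62 and 38 in 451Lu-R corin, a ratio of 94.3 with a 95% counting interval from 16.5 to 3760 (edgeR FDR 9.30e-09), against 0, 1, 1 and 2 counts in 1205Lu-R. In the corin libraries, CLDN1 was 303 times and CLDN11 31.5 times lower in 1205Lu-R than in 451Lu-R, with 95% counting intervals from 54.0 to 12000 and from 10.5 to 156. With 1205Lu-R this close to 0 in both groups, the difference in response could not be estimated for either gene. CLDN16, whose start lies within 0.1 kb of CLDN1 on the other strand, had 0 and 0 counts in 451Lu-R DMSO and 3.31 and 1.75 in 451Lu-R corin.

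CLDN12, a claudin found in many tissues, had the most counts of any claudin in every group. It had 650 and 645 counts in 451Lu-R DMSO, 832 and 719 in 451Lu-R corin, 385 and 305 in 1205Lu-R DMSO, and 560 and 674 in 1205Lu-R corin. It rose by a log2 fold change of 0.27 ± 0.060 in 451Lu-R (SE, edgeR FDR 0.000349) and by 0.84 ± 0.076 in 1205Lu-R (SE, edgeR FDR 1.36e-09), a difference of 0.52 ± 0.10 (SE, edgeR interaction FDR 0.000159). CLDN15, a claudin of the intestine, had 19 and 18.4 counts in 451Lu-R DMSO, 12 and 12 in 451Lu-R corin, 38 and 29 in 1205Lu-R DMSO, and 22 and 24.2 in 1205Lu-R corin. Corin libraries were lower in both lines, but the log2 fold changes of -0.60 ± 0.38 and -0.54 ± 0.29 (SE) did not pass the test (edgeR FDR 0.147 and 0.0913).

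The remaining claudins were too low to be tested, and those named were chosen after their values were seen. CLDN3, which lies 29.3 kb from CLDN4, had 0 and 0 counts in 451Lu-R DMSO and 8 and 9 in 451Lu-R corin, at least 5.35-fold higher, and none in 1205Lu-R. CLDN6 had 4 and 3 counts in 1205Lu-R DMSO and 10 and 8 in 1205Lu-R corin. CLDN20 had 8 and 9 counts in 451Lu-R DMSO and 0 and 0 in 451Lu-R corin, at least 6.01-fold lower. The other 8 claudins had at most 2 counts in any library.

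Promoter sequences were matched in RefSeq's GRCh38.p14 table for 45 of the 69 genes, with 54 start sites of 300 bases each. Of the 17 genes that rose in either line, 8 were matched: KRT8, KRT20, KRT32, CLDN1, CLDN4, CLDN11, CLDN12 and DSC1. The 250 bases before the start are printed 5′ to 3′ on the gene's strand for 4 matched genes, picked by hand with their levels known. CLDN4 rose in both lines, CLDN1 rose in 451Lu-R and was near 0 in 1205Lu-R, KRT8 is the keratin in question with its pseudogenes, and DSG2 was abundant in 1205Lu-R with or without corin. Capitals mark TGANTCA, the AP-1 type sequence, and the E-box CAGGTG on either strand, which SNAI and ZEB repressors are known to bind.
CLDN4, chr7:73830746-73830995, plus strand: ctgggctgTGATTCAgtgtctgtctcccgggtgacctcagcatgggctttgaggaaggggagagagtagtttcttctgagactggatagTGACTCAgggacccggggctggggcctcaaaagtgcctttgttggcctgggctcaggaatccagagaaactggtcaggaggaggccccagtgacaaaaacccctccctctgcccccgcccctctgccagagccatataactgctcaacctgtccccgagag
CLDN1, chr3:190322447-190322696, minus strand: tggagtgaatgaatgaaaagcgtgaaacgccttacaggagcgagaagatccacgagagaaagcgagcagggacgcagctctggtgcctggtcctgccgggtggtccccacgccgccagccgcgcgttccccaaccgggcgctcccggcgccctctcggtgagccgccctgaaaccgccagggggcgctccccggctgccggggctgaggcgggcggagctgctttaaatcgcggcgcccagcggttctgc
KRT8, chr12:52926470-52926719, minus strand: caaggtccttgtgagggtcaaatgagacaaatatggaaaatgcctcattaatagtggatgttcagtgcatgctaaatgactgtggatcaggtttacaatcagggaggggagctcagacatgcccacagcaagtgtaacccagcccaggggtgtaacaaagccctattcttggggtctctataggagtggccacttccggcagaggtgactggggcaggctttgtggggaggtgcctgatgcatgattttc
DSG2, chr18:31497927-31498176, plus strand: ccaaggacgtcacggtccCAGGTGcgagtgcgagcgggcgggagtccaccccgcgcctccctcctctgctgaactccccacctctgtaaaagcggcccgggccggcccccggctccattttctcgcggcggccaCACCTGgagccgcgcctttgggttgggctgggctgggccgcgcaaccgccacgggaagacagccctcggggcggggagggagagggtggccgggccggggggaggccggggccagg

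CLDN4 held TGANTCA at 2 places and DSG2 held CAGGTG once on each strand, while the stretches printed for CLDN1 and KRT8 held neither. Those of KRT8 and CLDN4 lie inside their gene spans (52897187 to 52949954 and 73799542 to 73832690), away from the outer ends. For both genes this was the only start matched, so motifs at any other start were not searched. Searched on both strands of the whole 300 bases, CAGGTG was in 16 of the 54 member promoters (29.6%) and in 20.6% of all 35116 promoters of the table. Among the matched genes that rose it was in KRT20 only. TGANTCA was in 4 member promoters (7.41%) and in 7.71% of all promoters, and CLDN4 was the only matched gene that rose with it. TATAAA, the TATA box, was in 14 member promoters (25.9%) and in 11.5% of all, and in none of the 9 start sites of matched genes that rose. No match of these motifs overlapped another in a member promoter. CG dinucleotides numbered 28 in the printed CLDN1 sequence, 26 in DSG2, 4 in CLDN4 and 1 in KRT8. At the start sites matched, the 8 genes that rose thus had no motif in common among those searched. The other 9 of the 17 genes that rose had no promoter to search.

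The desmosomal cadherins are 7 genes in a cluster on chromosome 18 (30989365 to 31549008), of which DSG2 was abundant in 1205Lu-R and the others were low in both lines. DSG2, the desmoglein of simple epithelia, had 1537 and 1521 counts in 1205Lu-R DMSO and 1491 and 1734 in 1205Lu-R corin, against 2.38, 6.02, 4 and 5.26 counts in the 451Lu-R libraries. In DMSO it was higher in 1205Lu-R by a log2 fold change of 8.56 ± 0.14 (SE, edgeR FDR 7.75e-26). Its response to corin in 1205Lu-R was 0.08 ± 0.037 (SE) and did not pass the test (edgeR FDR 0.0658). That response passed when libraries were scaled by their totals alone (0.15, edgeR FDR 0.0009) or filtered at a mean of 1 CPM (0.09, edgeR FDR 0.0301).

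DSC3, a desmocollin of stratified epithelia, had 12.1 and 10.98 counts in 451Lu-R DMSO, 12.8 and 1.51 in 451Lu-R corin, 1.12 and 0 in 1205Lu-R DMSO, and 2.46 and 2.77 in 1205Lu-R corin. The 451Lu-R corin libraries differed from each other, and the log2 fold change of -0.60 ± 0.55 (SE) did not pass the test (edgeR FDR 0.321). Without 451Lu-R corin replicate 1 it was -2.32 (edgeR FDR 0.0402) and without replicate 2 it was 0.083 (edgeR FDR 0.916). DSC1, a desmocollin of the upper epidermis, had 0 and 1 counts in 451Lu-R DMSO and 14.1 and 12 in 451Lu-R corin, a ratio of 24.5 with a 95% counting interval from 4.03 to 1010 (edgeR FDR 6.98e-05), and was at 0 in 1205Lu-R.

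The other desmosomal cadherins stayed low. DSC2 had 0, 0.884, 2.02 and 3.12 counts in the 451Lu-R libraries and 2.07, 6.06, 2 and 12 in the 1205Lu-R libraries, DMSO before corin. DSG3 had 1.15, 1.29, 0 and 8.86 counts in the 451Lu-R libraries, and in the 1205Lu-R libraries it had 0, 1.15, 2.70 and 0. DSG1 had 6 and 2 counts and DSG4 had 0 and 1 in 451Lu-R corin, and neither had any elsewhere. EPCAM had 0 and 0 counts in 451Lu-R DMSO, 6 and 2 in 451Lu-R corin, 0 and 0 in 1205Lu-R DMSO, and 1 and 1 in 1205Lu-R corin. At this depth no change could be tested for any of these 5 genes.

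**Figure D4:**
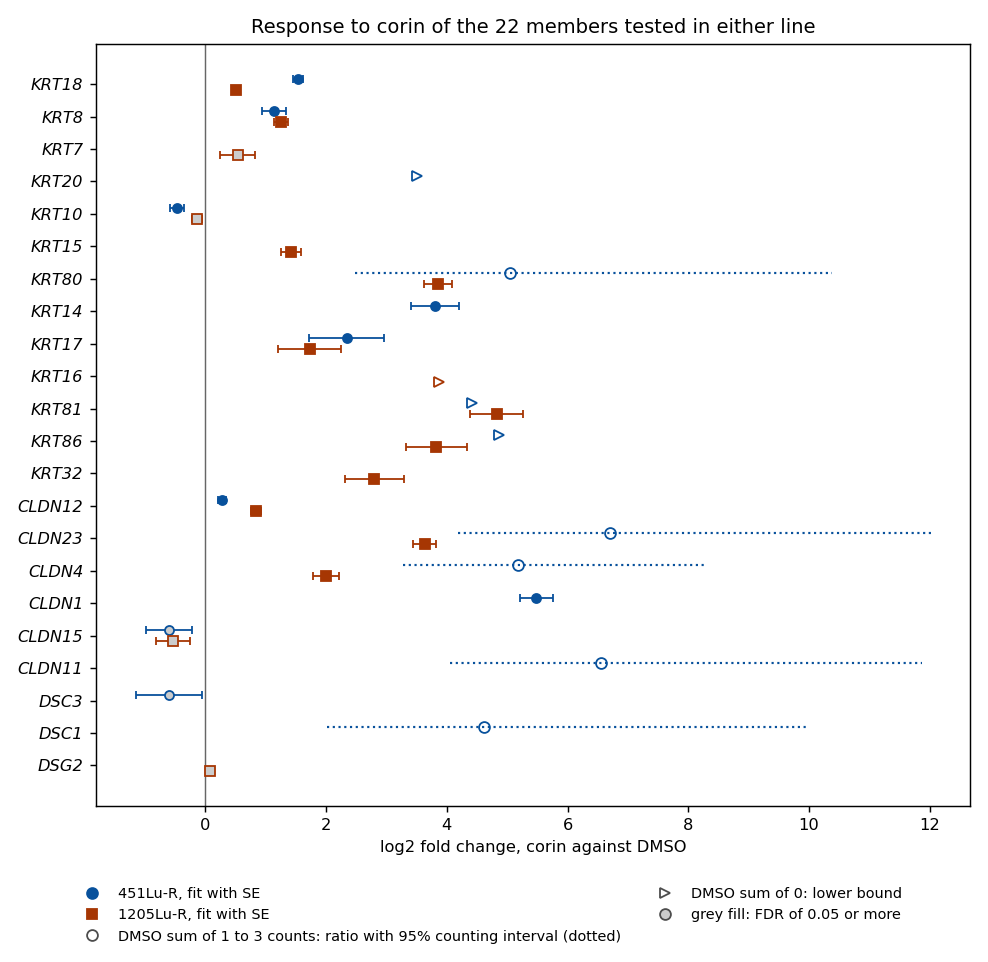
Log2 fold change of corin against DMSO for the 22 members tested in either line, with 451Lu-R as blue circles and 1205Lu-R as dark orange squares and bars for the standard error; open symbols with dotted lines are ratios with 95% counting intervals where DMSO held 1 to 3 counts, and triangles are lower bounds where it held none. Only KRT10, CLDN15 and, in 451Lu-R, DSC3 lie left of 0, and grey symbols did not pass the test.

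Of the 47 members tested in neither corin comparison, 5 (KRT33B, KRT76, KRT77, KRT82 and KRT84) were at 0 in all 8 libraries, and no count of the 47 exceeded 13. Their counts summed to 23.1 and 23.2 in 451Lu-R DMSO, 69.3 and 64.7 in 451Lu-R corin, 9.39 and 16.2 in 1205Lu-R DMSO, and 55.7 and 64.8 in 1205Lu-R corin. In 451Lu-R, both corin libraries were above both DMSO libraries for 14 of the 47 and below for 2, CLDN20 and KRT27. In 1205Lu-R they were above for 7 and below for none. Counts higher in this way were common outside the rule too. For 451Lu-R they made up 37.3% of the 18090 other protein-coding genes, against 44.9% of all 69 members. For 1205Lu-R it was 36.5%, against 31.9% of the members. Those shares cover genes at every level, so they set no expectation for members this low. Members that went from 0 in DMSO to at least 3 counts in both corin libraries were KRT6B, KRT23, KRT75 and CLDN3 in 451Lu-R and KRT3, KRT9, KRT19 and KRT23 in 1205Lu-R.

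In DMSO, 1205Lu-R held the higher level of most members that could be tested between the lines. Of 11 tested, 9 were higher and 2 lower in 1205Lu-R, where 41% and 41.5% of the 14104 genes tested were higher and lower (82.4% in either direction). At a 4-fold change and an FDR under 0.001, 6 were higher and 1 lower (10.1% and 10.6% of all tested genes, 20.7% together). Of these, 5 of the 6 had passed the filter only through 1205Lu-R DMSO, as had 1159 genes of which 78.5% were over these thresholds, and DSC3, the 1 lower, only through 451Lu-R DMSO. Of the 5 members over the cutoff in both lines, 4 were higher and 1 lower, where 40.9% and 40.7% of all such genes were. KRT18 was higher by a log2 fold change of 2.29 ± 0.066 (SE, edgeR FDR 1.75e-20), KRT8 by 1.43 ± 0.19 (SE, edgeR FDR 1.77e-07) and KRT15 by 3.75 ± 0.41 (SE, edgeR FDR 7.65e-09). KRT7 was at least 15.5-fold higher (edgeR FDR 9.33e-08), CLDN23 29.4 times higher with a 95% counting interval from 4.90 to 1200, and CLDN4 23.2 times higher with an interval from 6.10 to 197. CLDN12 was lower by 0.88 on the log2 scale (SE 0.078, edgeR FDR 1.91e-10), and DSC3 was lower by a ratio of 24.3 with an interval from 3.94 to 999. Both lines were BRAFi-R, and with 1 line on each side a difference between them cannot be assigned to any single trait of the lines.

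The order of levels per exon length also differed between the lines. In 451Lu-R DMSO, KRT10 (9.62 CPM per kb) and CLDN12 (9.42) led with overlapping libraries, KRT18 came next (7.37), and every other member was under 1. In 451Lu-R corin the order was KRT18 (20.1), CLDN12 (10.6), KRT10 (6.41), CLDN1 (4.05) and CLDN23 (2.32), with no overlap between neighbours. In 1205Lu-R DMSO, KRT18 (33.7) led KRT10 (15.0) and DSG2 (14.9), which overlapped, and CLDN12 (4.73). In 1205Lu-R corin, KRT18 (50.7) led DSG2 (16.5), KRT10 (14.3), and then CLDN12 (8.91) and CLDN23 (8.75), which overlapped. CLDN1, ahead of CLDN23 in 451Lu-R corin, had 1 count over the 2 libraries of 1205Lu-R corin.

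Across the lines, 11 members were tested in both, and 9 of them rose in both: KRT8, KRT17, KRT18, KRT80, KRT81, KRT86, CLDN4, CLDN12 and CLDN23. They make 64.3% of the members that rose in 451Lu-R and 75% of those that rose in 1205Lu-R. For all genes, shares were taken only over those tested in both lines. Genes that rose in both made 71.4% of such genes that rose in 451Lu-R. For 1205Lu-R it was 73.4%. The member shares are not on that basis, since they also count members tested in a single line. Among members tested in both lines, every one that rose in either line rose in both. KRT80, KRT81, KRT86 and CLDN23 passed the 4-fold threshold in both. KRT14, KRT20, CLDN1, CLDN11 and DSC1 rose in 451Lu-R and were not tested in 1205Lu-R, and KRT15, KRT16 and KRT32 rose in 1205Lu-R and were not tested in 451Lu-R. The interaction of line and corin was tested for 22 members and passed in 5: CLDN12 responded more in 1205Lu-R, and KRT18, KRT86, CLDN4 and CLDN23 responded less (22.6% and 27.1% of the 16062 genes tested, 49.7% in either direction). At a 4-fold difference and an FDR under 0.001 none responded more and CLDN4 responded less (2.43% and 3.13% of all tested genes, 5.56% together).

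The partners of these genes were read from lists drawn up for the purpose, of which the most abundant genes are named. Of the 8 desmosomal plaque genes, 4 of 4 tested rose in 451Lu-R, and 2 rose and 1 fell of 3 tested in 1205Lu-R. As background to this and the later lists, 41.3% and 40.4% of all genes tested rose and 38.6% and 37.8% fell (451Lu-R first). PKP2, a plakophilin that links desmosomal cadherins to DSP, had 0 and 0 counts in 451Lu-R DMSO and 204 and 189 in 451Lu-R corin, at least 124-fold higher, and between 1.43 and 2.98 counts in 1205Lu-R. PKP3, another plakophilin, went from 0 and 0 to 21 and 14 counts in 451Lu-R, where it rose (edgeR FDR 3.88e-06). It fell in 1205Lu-R by 0.94 on the log2 scale (edgeR FDR 2.06e-07), from 220 and 201 to 98 and 122 counts. DSP, the plaque protein that binds keratin, rose in 1205Lu-R from 226 and 216 to 541 and 626 counts (log2 fold change 1.399 ± 0.073, SE, edgeR FDR 1.06e-13) and had 7 counts or fewer in 451Lu-R. JUP rose in 451Lu-R from 0 and 0 to 15 and 18 counts (edgeR FDR 6.24e-06), and it went from 0 and 0 to 7 and 2 in 1205Lu-R. So the line with abundant DSG2 was the line with DSP, and the line without them gained PKP2. With 0 counts in 451Lu-R DMSO, PKP2, PKP3 and JUP passed the filter only through corin. By that route 92.1% of all genes rose, so the 4 of 4 says little about desmosomes. The later lists share this limit wherever DMSO counts were near 0.

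Of the 12 tight junction partners, 8 rose of 9 tested in 451Lu-R, 9 rose of 10 tested in 1205Lu-R, and none fell in these tests. OCLN, the tetraspan partner of claudins in the strands, went from 10.1 and 4.01 to 150 and 132 counts in 451Lu-R (log2 fold change 4.32 ± 0.26, SE, edgeR FDR 5.62e-12) and from 84.8 and 82.5 to 275 and 298 in 1205Lu-R (1.77 ± 0.12, SE, edgeR FDR 4.91e-12). The scaffold TJP1 had 521 and 467 counts in 451Lu-R DMSO, 1461 and 1308 in 451Lu-R corin, 800 and 812 in 1205Lu-R DMSO, and 1570 and 1769 in 1205Lu-R corin, and rose by 1.502 and 1.05 on the log2 scale (edgeR FDR 6.50e-16 and 1.04e-15). F11R, a junctional adhesion molecule, rose by 1.70 in 451Lu-R (edgeR FDR 1.92e-15), and in 1205Lu-R it went from 2.78 and 0 to 34.7 and 36.1 counts, a ratio of 24.9 with a 95% counting interval from 8.18 to 124 (edgeR FDR 3.32e-07). TJP3, outside the rule for names and chosen after its values were seen, went from 0 in all 4 DMSO libraries to 367 and 352 counts in 451Lu-R corin and to 91 and 108 in 1205Lu-R corin, at least 226-fold and 69.7-fold higher. TJP1 thus rose in both lines, as did CLDN4, CLDN12 and CLDN23, while CLDN15 passed the test in neither. CLDN20, too low to be tested, was lower in 451Lu-R corin. Any link between scaffolds and claudins was not tested.

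Of the 11 epithelial adhesion and surface genes, 2 of 3 tested rose in 451Lu-R, and 1 rose and 1 fell of 3 in 1205Lu-R. CXADR, a junctional receptor, rose by a log2 fold change of 4.69 ± 0.092 in 451Lu-R (SE, edgeR FDR 1.14e-19) and 5.49 ± 0.13 in 1205Lu-R (SE, edgeR FDR 4.94e-20), and LLGL2, a polarity protein, rose by 3.45 ± 0.12 in 451Lu-R (SE, edgeR FDR 1.57e-15). CDH1, the E-cadherin of adherens junctions, had 8 counts or fewer in every library, namely 4.01 and 1 in 451Lu-R DMSO, 8 and 2 in 451Lu-R corin, 0 and 0 in 1205Lu-R DMSO, and 1 and 3.05 in 1205Lu-R corin. AP1M2, an epithelial sorting adaptor, fell in 1205Lu-R by 0.91 on the log2 scale (edgeR FDR 3.92e-05).

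Of the 12 epithelial transcription and splicing factors, 6 rose and 1 fell of 7 tested in 451Lu-R, and 5 of 5 tested rose in 1205Lu-R. KLF5 rose by 4.34 ± 0.12 and 2.12 ± 0.071 on the log2 scale (SE, edgeR FDR 2.38e-17 and 3.98e-17), KLF4 by 5.14 ± 0.26 and 1.03 ± 0.080 (SE, edgeR FDR 3.77e-13 and 1.21e-10), and GRHL1 by 2.58 ± 0.19 and 2.86 ± 0.24 (SE, edgeR FDR 1.62e-10 and 5.78e-10), in 451Lu-R and 1205Lu-R. TP63, the regulator of basal keratinocytes, went from 0 and 0 to 38 and 26 counts in 451Lu-R, at least 20.1-fold higher, and from 0 and 0 to 7 and 4 in 1205Lu-R. ESRP1, the epithelial splicing regulator, fell in 451Lu-R from 754 and 710 to 105 and 64 counts (by 3.10 on the log2 scale, edgeR FDR 5.09e-16). GRHL2 and OVOL1 had 1 count or none in every library.

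The cornified envelope list had 2 of 2 tested genes rise in each line, CNFN and SPRR2D in 451Lu-R and CNFN and SFN in 1205Lu-R. Among the other intermediate filaments, which mark mesenchymal, muscle and neural cells, 8 of 8 tested rose in 451Lu-R, and 4 rose and 1 fell of 5 in 1205Lu-R. NEFL, a neurofilament chain, went from 0 and 0 to 71 and 56 counts in 451Lu-R and from 430 and 433 to 2836 and 3416 in 1205Lu-R. DES, the muscle filament desmin, went from 0 in all 4 DMSO libraries to 60 and 48 counts in 451Lu-R corin and to 47 and 54 in 1205Lu-R corin, at least 34-fold and 35.4-fold higher. VIM stayed between 43344 and 106552 counts and rose by 0.29 in 451Lu-R and 0.02 in 1205Lu-R on the log2 scale (edgeR FDR 4.48e-13 and 1.42e-06). The median over all genes tested in 1205Lu-R was 0.0341, and 0.107 with library totals only. The VIM value of 0.02 is thus smaller than the shift made by the choice of scaling. NES, the nestin of neural progenitors, was the second filament gene by level and changed in opposite directions. It rose in 451Lu-R from 384 and 351 to 1641 and 1233 counts (log2 fold change 1.98 ± 0.064, SE, edgeR FDR 3.00e-16) and fell in 1205Lu-R from 13710 and 13661 to 4243 and 4973 counts (by 1.57 on the log2 scale, edgeR FDR 4.67e-22). VIM was the filament gene with most counts in every library.

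The EMT repressors, factors known to silence epithelial genes, had 3 of 5 tested rise and 2 fall in 451Lu-R, and 3 of 6 rise and 1 fall in 1205Lu-R. SNAI2 fell in 451Lu-R from 2540 and 2238 to 763 and 642 counts and rose in 1205Lu-R from 524 and 481 to 1067 and 1307, log2 fold changes of -1.75 ± 0.038 and 1.24 ± 0.050 (SE, edgeR FDR 7.23e-19 and 1.15e-15). ZEB2 fell by 1.95 in 451Lu-R (edgeR FDR 1.06e-16) and rose by 0.37 in 1205Lu-R (edgeR FDR 0.00708). ZEB1 rose in 451Lu-R by 1.59 ± 0.14 (SE, edgeR FDR 1.84e-09), and its value of -0.04 ± 0.055 in 1205Lu-R did not pass the test (SE, edgeR FDR 0.488). SNAI1 rose in both, by 2.29 ± 0.076 and 2.64 ± 0.050 (SE, edgeR FDR 4.66e-16 and 2.05e-21). SNAI2 and ZEB2 thus changed in opposite directions between the lines, and SNAI1 in the same direction. The part of these factors in the changes of keratins and claudins was not tested.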

How the data were processed

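PolyA RNA-Seq libraries of 451Lu-R and 1205Lu-R cells were analysed, 2 per group in 4 groups, as mapped by the sample titles. The authors deposited estimated counts per gene: reads were trimmed with Trimmomatic and quantified with Salmon against GENCODE 32 (GRCh38), which divides reads shared by similar transcripts between them. The labels do not say that replicates were separate cultures, so p-values measure only the spread between these libraries. The authors' own tables of log2 fold changes and adjusted p-values, which cover the PLX4032 treatments, were not used.

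Counts were rounded and tested with edgeR 4.0.16 (R 4.3.3): filterByExpr with a minimum count of 10, TMM scaling, quasi-likelihood fits and Benjamini-Hochberg adjustment over all genes tested, separately for each comparison and, for the interaction, in 1 fit of all 8 libraries. DESeq2 1.42.0, other scalings and filters, a replicate block, pseudogene counts added to their parent and each library left out were alternatives. Each edgeR SE was derived, as the size of the log2 fold change divided by the square root of its quasi-likelihood F statistic. Gene symbols and coordinates came from GENCODE 44, which matched 34052 of 34228 genes. Library totals ran from 9516687 to 11797788, and counting intervals (exact, 95%) cover counting error only. On simulated data for corin against DMSO in 451Lu-R, 82 of 96 genes changed 2-fold and 94 of 96 changed 4-fold were recovered, with 19 false calls among 14267 genes. For the interaction, recovery was lower, at 67 of 96 and 86 of 99, with 14 false calls among 15326 genes. An interaction that did not pass the test may thus have been missed.

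Members and lists were chosen with earlier results of these data known. Values in every library are given for members tested in either line, every desmosomal cadherin and EPCAM. Partner genes, given by library or by fold change, were drawn from the 5 of each list with the highest mean CPM and from CDH1, DSP, JUP, OCLN, VIM, GRHL2, OVOL1, ZEB1, ZEB2 and SNAI2, with exceptions named as such. Same-numbered libraries deviated together with correlations from -0.061 to 0.158, and no 2 libraries agreed within sampling noise (chi-square per degree of freedom 1.338 to 1.408).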

Additional observations from a re-analysis of the deposited data

Results flagged for a closer look

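The response to corin differed between the lines past the interaction test for 5 members (edgeR, values on the log2 scale, 1205Lu-R minus 451Lu-R). CLDN12 differed by 0.52 (FDR 0.000159) and KRT18 by -1.06 (FDR 3.82e-09), both from genes with at least 204 counts in every library. CLDN4 differed by -3.16 (FDR 0.000925), CLDN23 by -2.87 (FDR 0.0107) and KRT86 by -4.74 (FDR 0.0213). For these 3 genes the 2 DMSO libraries of 451Lu-R held 2.12, 1 and 0 counts in sum, so the differences rest on very few counts. The value for KRT86, whose DMSO group was at 0, depends on the prior count and is no bound, and KRT86 shares reads with KRT81. With counts of KRT81, KRT83 and KRT86 summed, an alternative chosen after the data were seen, the difference was -4.92 (FDR 0.00735) and rests on the same 0 counts.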

How the results depend on the processing

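No member changed direction past the test under any alternative run. Of members called in 451Lu-R, the number lower was 1 in the report, 2 with DESeq2, 3 with no filter on low counts, 0 at the 4-fold threshold with FDR under 0.001, and 1 to 3 with each library left out. The number higher in 1205Lu-R was 12, and 6 at that stricter threshold. For the lines in DMSO, the number lower in 1205Lu-R was 2 in the report, 4 with DESeq2, 6 with no filter, 1 with a mean of at least 1 CPM, 4 with all 8 libraries in 1 fit, 1 at the stricter threshold, and 1 to 4 with a library left out. For the interaction, the number lower was 4 in the report, 2 with DESeq2, 1 at the stricter threshold and 2 to 4 with a library left out, and the number higher was 1 in the report, 2 with library totals only, 0 at the stricter threshold and 1 to 2 with a library left out. The causes were not tested, except that the filters change how many genes are tested.

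Beside the calls of KRT8 in 451Lu-R, lost with pseudogene counts added, and of KRT17 in both lines, lost with DESeq2 and with single libraries left out, the calls lost were CLDN15 between the lines (DESeq2 adjusted p 0.133, without 451Lu-R DMSO replicate 1 edgeR FDR 0.0570, without 1205Lu-R DMSO replicate 1 0.134), the CLDN23 interaction (DESeq2 adjusted p 0.0804, without 451Lu-R DMSO replicate 2 edgeR FDR 0.0932) and the KRT86 interaction (DESeq2 adjusted p 0.0510, without any 1 of the 4 DMSO libraries edgeR FDR 0.0516 to 0.0754). The KRT10 interaction passed with library totals only (0.51, edgeR FDR 0.00316) and without 451Lu-R corin replicate 1 (0.52, edgeR FDR 0.00924). With library totals only the median interaction of all genes was 0.20 in place of -0.01, and 33.2% of genes were higher and 18.7% lower. DESeq2 called 27.8% of 19880 genes higher and 23.6% lower in 451Lu-R.

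The replicate numbers do not pair the libraries, and with the replicate block the counts of members called for corin were 14 higher and 1 lower (451Lu-R) and 12 higher and 0 lower (1205Lu-R), with 9 and 2 between the lines and 1 and 4 for the interaction, with no call changed.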
